A study of Rattus norvegicus with 80 samples.

Results

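Mature adipocytes of the mammary fat pad were compared between rats of the line labelled IF, which carries a mutated Nf1 gene, and wildtype rats. The comparison rests on 6 of the 80 libraries, 3 of IF and 3 of wildtype adipocytes, chosen by their labels. RNA of the adipocytes was isolated with Trizol, libraries were made from polyadenylated RNA, and the table holds whole-number counts of reads per gene. The series also profiled adipocytes of the other mutated lines, PS and IFPS. It further holds cultured mammary epithelial cells (MECs), cultured fibroblasts, whole mammary pads and tumors, and states that normal tissue types were sorted by flow cytometry. The labels give no strain, sex, age or treatment for any group, do not spell out the names IF, PS and IFPS, and do not say whether libraries came from separate animals. The p-values thus measure the spread between libraries, which may be technical. That spread was estimated jointly over all groups of a fit, here including PS and IFPS adipocytes, and not from the 6 libraries alone.

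The mammary fat pad is a tissue of lipid-filled adipocytes in which epithelial ducts, fibroblasts, blood vessels, nerves and immune cells are embedded. Adipocytes store triglyceride, release fatty acids and secrete hormones, and they arise from fibroblast-like precursors of the stroma. Nf1 encodes neurofibromin, a protein that switches Ras off, and Ras with its kinase cascade acts on both the growth and the differentiation of cells of the adipocyte lineage. RNA of an adipocyte preparation can hold RNA of the surrounding cells, and a library of bulk RNA reports the sum. In such a library, fewer cells of a type and less RNA per cell cannot be told apart.

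The table names genes by Ensembl rat identifiers, and none of its 32883 identifiers could be paired with a gene symbol here. Nf1 itself, the marker genes of the cell types and the gene lists for this tissue were therefore not analysed here, and genes are described in groups set by where they are expressed. The label "adipocytes" was checked in the same way, through genes enriched in the adipocytes of other lines.

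The 3 wildtype libraries held 27600634 to 31232279 counts and the 3 IF libraries 25743064 to 30524166. The IF libraries had 12268 to 13027 genes at a CPM (counts scaled to a common library total) of 1 or more, above the 11806 to 12087 of wildtype, the 11637 to 11700 of PS and the 11635 to 11817 of IFPS. In a principal component analysis of the 12 adipocyte libraries the first component held 74.5% of the variance, and on it IF replicates 1, 2 and 3 lay at 146, 61.1 and 136. The other 9 libraries lay between -54.8 and -1.97. The IF libraries were also unlike each other. Spearman's correlation over genes was 0.991 between IF replicates 1 and 3, but 0.949 and 0.965 between replicate 2 and each of them, where no correlation among the 9 libraries of the other lines was under 0.977. IF replicate 2 was the closest to wildtype, at 0.963 to 0.968, against 0.889 to 0.909 for replicate 1 and 0.907 to 0.92 for replicate 3. Every result below that rests on all 3 IF libraries joins libraries that differ in this way.

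The RNA of other tissue in the IF libraries was described first. Each adipocyte library was fitted as a mixture of mean wildtype adipocytes, IF MECs, IF fibroblasts and IF pads, with shares of at least 0 that sum to 1, by least squares on log2(CPM + 1) over the 14304 genes tested. The fitted share of tissue other than wildtype adipocytes was 30.7% in IF replicate 1, 5.7% in IF replicate 2 and 23.9% in IF replicate 3. It was 0%, 0.096% and 1.14% in the wildtype libraries, each fitted against the mean of the other wildtype libraries, and 0% in all PS and IFPS libraries. All 3 IF libraries were thus above all 9 others, and replicates 1 and 3 were well above replicate 2. In replicate 1 the MEC share was 10.1%, the fibroblast share 4.29% and the pad share 16.2%. In replicate 3 these shares were 4.96%, 3.12% and 15.8%. In replicate 2 the MEC share was 0%, the fibroblast share 1.98% and the pad share 3.72%. Pads contain adipocytes of the same line, so a pad share is not only RNA of other cells. Without a pad component the other tissue made up 27.3%, 4.35% and 20% of replicates 1, 2 and 3. A fit by weighted least squares on CPM, without logarithms, gave 36%, 4.31% and 28.9%, but also 8.52% and 13.1% for wildtype replicates 2 and 3. The place of IF replicates 1 and 3 above all wildtype libraries therefore held in both fits, and that of IF replicate 2 only on the log scale.

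**Figure D1:**
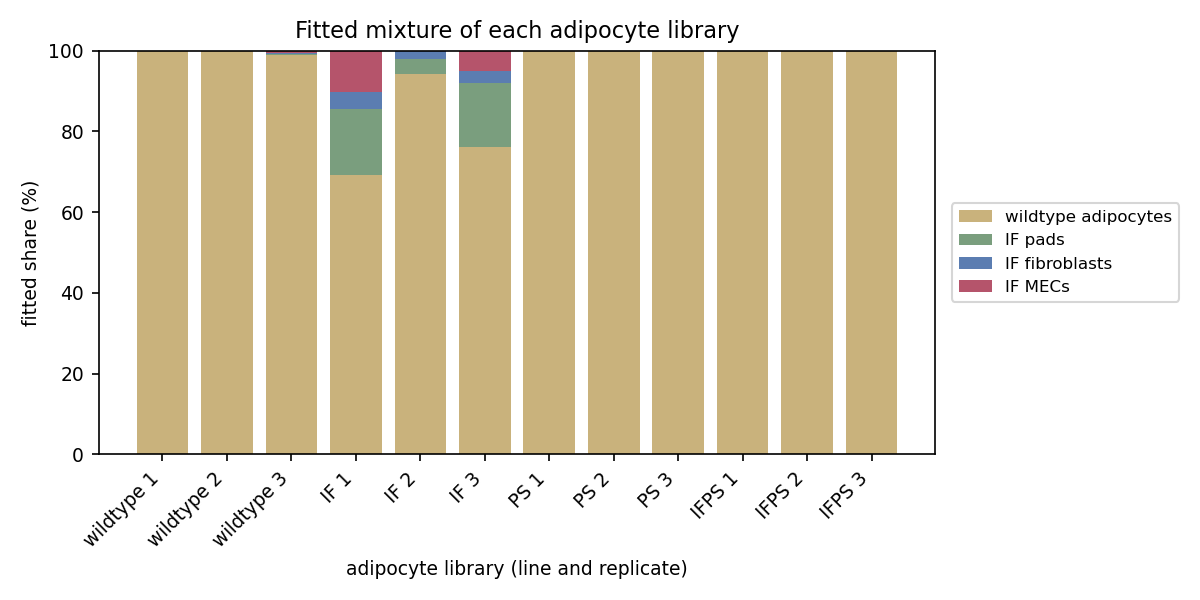
Fitted shares, in percent, of mean wildtype adipocytes and of IF pads, fibroblasts and MECs in each of the 12 adipocyte libraries, drawn as stacked bars. The share of other tissue is 30.7%, 5.7% and 23.9% in the 3 IF libraries and at most 1.14% in the 9 others.

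The mixture described part of the distance from wildtype. For IF replicate 1, 3185 genes were at least 2-fold from mean wildtype adipocytes and 2173 were at least 2-fold from the fitted mixture, both on the scale of CPM + 1. For replicate 3 these numbers were 2873 and 1924, and for replicate 2 they were 989 and 777. The mean squared log2 distance that the mixture left was 53.2%, 55.1% and 82% of the distance from wildtype in replicates 1, 3 and 2. The fit minimizes this distance and includes wildtype alone as a case, so the distance could not grow. For comparison, 86 to 303 genes of a wildtype library and 164 to 390 genes of a PS or IFPS library were at least 2-fold from mean wildtype adipocytes, with a wildtype library left out of its own mean.

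Between IF and wildtype adipocytes, the quasi-likelihood test of edgeR, with p-values adjusted after Benjamini and Hochberg, called 48.2% of the 14304 genes at an adjusted p-value under 0.05, 3785 higher and 3108 lower in IF. The higher genes had a median log2 fold change of 1.38 and the lower genes one of -0.61, so increases were larger than decreases. When a change had to exceed 2-fold by edgeR's glmTreat, 1191 genes were higher and 71 lower. With the spread estimated from IF and wildtype adipocytes alone, 2727 genes were higher and 1597 lower. With IF replicate 2 as the only IF library, a choice made after the shares were seen, 1545 genes were higher (10.5% of genes) and 1262 lower (8.61%), in a fit where that single library is assumed to vary like the other groups. A test of IF against the mean of PS and IFPS, which does not use the wildtype libraries, called 59.4% of genes, 4431 higher and 4061 lower in IF. Of the 3785 genes higher than wildtype, 3590 were also higher than PS and IFPS by this test, and of the 3108 lower genes 2947 were also lower. Both tests use the same IF libraries.

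To describe these genes by tissue, they were put in classes from PS and IFPS libraries alone, whose levels do not enter the fold change between IF and wildtype. The adipocyte libraries of these lines do share the estimate of spread in that test. A gene was enriched in a tissue when its mean over 6 libraries was at least 1 CPM and at least 4-fold above each tissue named, with no overlap of the libraries. Adipocyte-enriched genes were above both MECs and fibroblasts, MEC-enriched genes above adipocytes and fibroblasts, fibroblast-enriched genes above adipocytes and MECs, and pad-enriched genes above all 3 cell types. Whole pads also hold vessels, nerves and immune cells, and which of these express the pad-enriched genes was not examined. A further class was higher in both MECs and fibroblasts than in adipocytes.

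Genes of the other tissues were mostly higher in IF adipocytes. Of 652 MEC-enriched genes, 499 were higher in IF than in wildtype adipocytes (76.5%, against 26.5% of all genes tested) and 6 were lower. Of 164 fibroblast-enriched genes, 109 were higher and 7 lower. Of 845 genes higher in both MECs and fibroblasts than in adipocytes, 617 were higher and 7 lower. Of 626 pad-enriched genes, 412 were higher and 13 lower. The median log2 fold changes were 2.25 for MEC-enriched, 1.79 for fibroblast-enriched, 1.72 for genes of both and 1.87 for pad-enriched genes, beside 0.01 for all genes tested. Genes of all 4 classes were thus called higher more often than genes at large.

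MEC-enriched genes took 0.375%, 0.45% and 0.465% of the counts in the wildtype libraries and 2.05%, 0.749% and 1.69% in IF replicates 1, 2 and 3. Fibroblast-enriched genes took 0.326%, 0.378% and 0.422% in wildtype and 1.5%, 1.1% and 1.48% in IF. Pad-enriched genes took 0.232%, 0.284% and 0.245% in wildtype and 1.17%, 0.518% and 1.16% in IF. In each of these classes all 3 IF libraries were above all 3 wildtype libraries, and replicate 2 was the lowest of the IF libraries. The PS and IFPS libraries, at 0.311% to 0.366% for MEC-enriched genes, lay below IF as well, although they served to define the class.

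**Figure D2:**
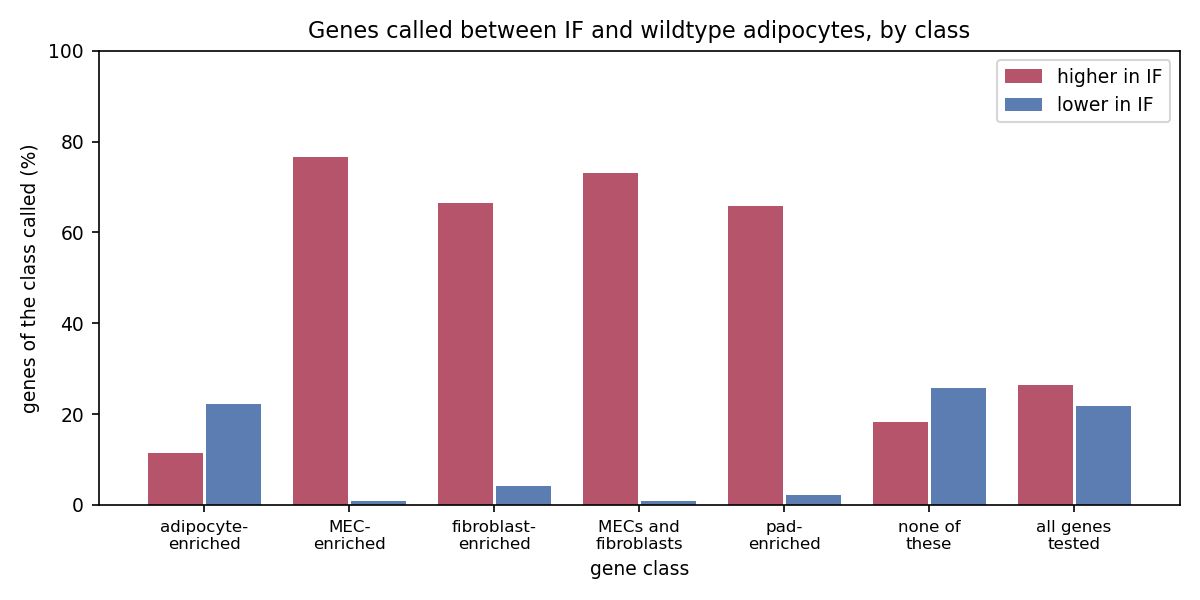
Share of genes, in percent of those tested, called higher or lower in IF than in wildtype adipocytes in each gene class. MEC-enriched genes were called higher in 76.5% of cases and adipocyte-enriched genes in 11.5%, beside 26.5% of all genes tested.

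Adipocyte-enriched genes moved less, and in both directions. Of 706 such genes, 157 were lower in IF (22.2%, beside 21.7% of all genes tested) and 81 were higher (11.5%, beside 26.5%), with a median log2 fold change of -0.34. The share of genes called lower was therefore near that of all genes. The libraries disagreed on this class. Adipocyte-enriched genes took 25.2%, 20% and 18.6% of the counts in the wildtype libraries. They took 13.4% in IF replicate 1 and 15.5% in IF replicate 3, below all wildtype libraries, but 22.4% in IF replicate 2, inside the wildtype range. The median log2 ratio to mean wildtype was -0.80 in replicate 1, -0.57 in replicate 3 and 0.03 in replicate 2. The fitted share of wildtype adipocytes, taken alone, corresponds to log2 changes of -0.528, -0.394 and -0.0846 in replicates 1, 3 and 2. The pad component also holds adipocyte RNA, so these are the largest falls that the fitted shares could give. Relative to the mixture, which includes the adipocyte RNA of every component, the class medians were -0.59, -0.46 and 0.06 in replicates 1, 3 and 2. The medians of all genes were -0.20, -0.23 and -0.17. Within the class, genes in the upper tercile by level were at -0.83 and -0.54 in replicates 1 and 3 and at 0.08 in replicate 2. Genes in the middle tercile were at -0.56, -0.39 and 0.08, and genes in the lower tercile at -0.43, -0.43 and 0.01. In IF replicates 1 and 3 the upper tercile thus had the lowest median against the mixture, and in replicate 2 it was not below it. In replicate 3 the middle tercile was not below the lower one. The scale of CPM + 1 damps the ratios of genes at low levels, so part of the difference between terciles may come from the scale.

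**Figure D3:**
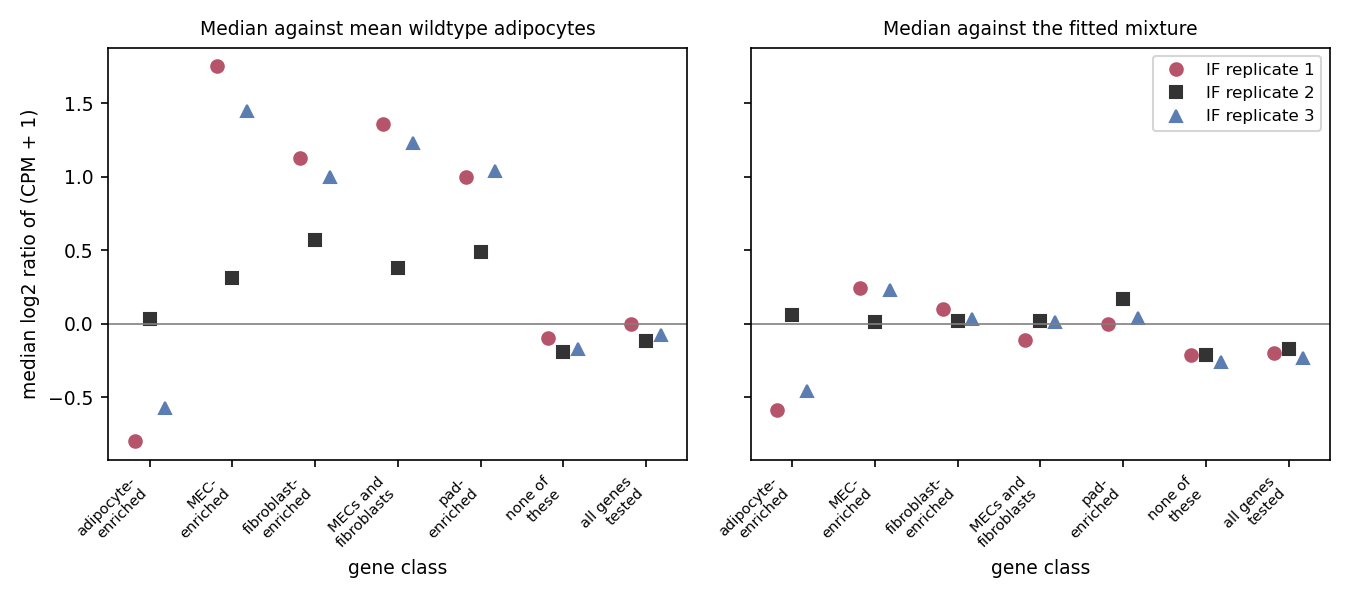
Median log2 ratio of (CPM + 1) per gene class in each IF adipocyte library, against mean wildtype adipocytes on the left and against the fitted mixture on the right. Against the mixture the adipocyte-enriched class is at -0.59 and -0.46 in IF replicates 1 and 3 and at 0.06 in replicate 2, and the fibroblast-enriched class is between 0.02 and 0.10.

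Genes that changed beyond the mixture were then sought. A gene counted as beyond the mixture when it was called between IF and wildtype and its level was at least 2-fold above (or below) the level expected from the mixture in all 3 IF libraries, on the scale of CPM + 1. This held for 270 genes above the mixture (1.89% of genes tested) and 146 genes below it (1.02%). The level rule was also applied without the call to the other lines. In wildtype it gave 0 genes, but each wildtype library was set against the mean of the others, which fixes that count, so it is no comparison. Above the mixture the rule was met by 9 genes in PS (0.0629%) and 3 in IFPS (0.021%), and below it by 176 genes in PS (1.23%) and 109 in IFPS (0.762%). In IF the level rule alone gave 270 genes above (1.89%) and 174 below (1.22%). The number above the mixture in IF was thus far over those in PS and IFPS, and the number below it was close to that in PS. These counts do not say whether the genes are the same. Without IF replicate 2 the rule gave 672 genes above and 668 below the mixture, and without a pad component 408 and 128.

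The 270 genes above the mixture were of every class. Among them were 31 adipocyte-enriched, 33 MEC-enriched, 9 fibroblast-enriched and 55 pad-enriched genes, 40 genes higher in both MECs and fibroblasts than in adipocytes, and 102 genes of none of these classes. Pad-enriched genes met the rule most often, at 8.79% of the class, and genes of none of the classes least often, at 0.902%. Their median level was 8.89 CPM in wildtype and 51 CPM in IF adipocytes, and 86 of them reached a mean of 100 CPM in IF. Together they took 1.48%, 1.39% and 1.44% of the counts in the wildtype libraries and 5.65%, 4.07% and 5.17% in IF replicates 1, 2 and 3. The PS and IFPS libraries were at 1.18% to 1.3%. The choice of these genes sets the high values of all 3 IF libraries, so the shares only show how much of the RNA they made up. Of the 270 genes, 268 were also higher in the test against PS and IFPS, which uses the IF libraries that chose them.

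The 146 genes below the mixture had a median level of 17.8 CPM in wildtype and 5.95 CPM in IF adipocytes. They included 31 adipocyte-enriched genes, which is 4.39% of that class and the same number as above the mixture, and 102 genes of none of the classes. Together they took 1.15%, 1.4% and 1.44% of the counts in wildtype, and 0.297%, 0.549% and 0.348% in IF replicates 1, 2 and 3, where the low values are again set by the choice of genes. PS and IFPS libraries were at 1.15% to 1.52%. Of these genes, 140 were also lower than in PS and IFPS adipocytes.

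**Figure D4:**
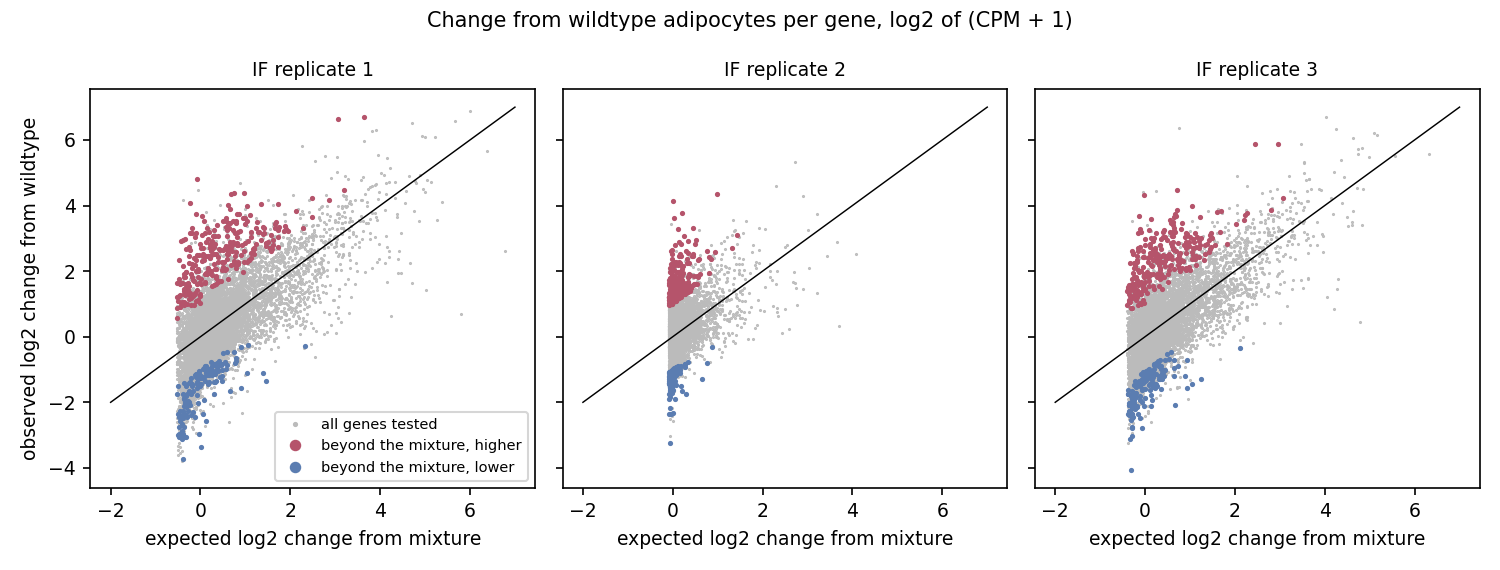
Observed against expected log2 change from mean wildtype adipocytes for each gene in the 3 IF adipocyte libraries, where the expected change is that of the fitted mixture and the line marks equality. The 270 genes above and the 146 genes below the mixture in all 3 libraries are in color, and expected changes are smallest in IF replicate 2, whose fitted share of other tissue was 5.7%.

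IF replicate 2, the IF library with the lowest fitted share of other tissue, served to look up genes it had not selected, a step added after the data were seen. With IF replicates 1 and 3 alone as the IF libraries, 672 genes lay above the mixture. In replicate 2, 645 of these (96%) were above the mixture, 272 (40.5%) by at least 2-fold, and 0 were at least 2-fold below it. Of all 14829 genes tested in that fit, 33.8% were above the mixture in replicate 2 and 2.86% by at least 2-fold. Of the 668 genes below the mixture in replicates 1 and 3, 626 (93.7%) were below it in replicate 2 and 142 (21.3%) by at least 2-fold, where 66.2% and 2.35% of all genes were. The mixture contains the wildtype adipocytes in each case, so these values share that reference. Set directly against mean PS and IFPS adipocytes, with no mixture, replicate 2 was higher for 665 of the 672 genes, with a median log2 ratio of 1.42. It was lower for 639 of the 668, with a median of -0.69. The RNA of other tissue in replicate 2 is not taken off in these ratios. Of all 14829 genes, 43.7% were higher and 56.2% lower by this measure, with a median of -0.07.

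The mixture was also put into the test itself. For each IF library, the log ratio of expected to mean wildtype level, each with 1 CPM added, entered the edgeR fit as an offset. In this fit, added after the data were seen, 3087 genes were higher (21.6%) and 3003 lower (21%) than the mixture. Of the 3785 genes higher than wildtype, 2801 (74%) were higher than the mixture, and of the 3108 lower genes 2657 (85.5%) were lower than it. MEC-enriched genes were above the mixture in 327 of 652 cases (50.2%) and pad-enriched genes in 285 of 626 (45.5%). For MEC-enriched genes the median log2 excess was 1.09 in this fit. On the scale of CPM + 1 the medians were 0.24, 0.01 and 0.23 in replicates 1, 2 and 3. The size of the excess of these low genes thus depended on the scale. The added 1 CPM makes the expected rise of genes near 0 in wildtype too small. The numbers of such genes called above the mixture may therefore be too high. Adipocyte-enriched genes were higher in 121 and lower in 129 of 706 cases (17.1% and 18.3%). With IF replicate 2 as the only IF library this fit called 1152 genes higher (8.05%) and 1122 lower (7.84%). Among them, 57 adipocyte-enriched genes were higher (8.07%, near the share of all genes) and 36 lower (5.1%). Of the pad-enriched genes 108 were higher (17.3%) and 5 lower (0.799%), and of the MEC-enriched genes 76 were higher (11.7%) and 8 lower (1.23%). The error of the fitted shares is not part of these tests, and cells that are in no component in number have no term in the mixture.

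A different rule needs no fitted share, because a mixture cannot lie above its highest or below its lowest component. This bounds only mixtures of the libraries used. The MECs and fibroblasts were cultured, and other cells of the pad have no library of their own, so their RNA could lie outside the range. Of the genes called, 321 were higher in all 3 IF adipocyte libraries than in every library of wildtype adipocytes and of IF and wildtype MECs, fibroblasts and pads with title numbers 1 to 12, in CPM of the library total. A further 1216 were lower than in every one of these libraries. They are 2.24% and 8.5% of the genes tested, and 103 and 66 of them also met the mixture rule. Of the 7411 genes that were not called, 0.256% lay above the range and 3.44% below it. The balance depended on the scaling, since CPM scaled by TMM gave 683 genes above and 640 below the range. Of the genes above the range, 63 were adipocyte-enriched, 4 MEC-enriched and 1 fibroblast-enriched. The rule fixes this order, because genes of a class start far above or far below the tissues they must pass, and for the same reason 0 adipocyte-enriched genes lay below the range. Changes above the range had a median log2 fold change of 1.11 and those below it a median of -0.60. A further 1.5-fold beyond the range was reached by 87 genes above and 121 below it. Without IF replicate 2, 645 genes lay above and 1663 below the range.

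Of the genes outside this range, those with a mean of at least 10 CPM in the higher group and the most extreme fold changes are given by identifier. Pad values for them are those of title numbers 1 to 12, and pads with higher numbers were not compared. ENSRNOG00000016388 had 0, 0 and 0.16 CPM in the wildtype adipocyte libraries, which is 0, 0 and 5 counts, and 21.1, 7.85 and 12.5 CPM in IF replicates 1, 2 and 3, which is 542, 224 and 382 counts. All 3 IF libraries were high, and replicate 2 was the lowest of them. PS and IFPS adipocytes had at most 0.288 CPM, and MECs of IF and wildtype at most 0.176 CPM. Fibroblasts had 1.24 to 3.33 CPM in wildtype and 3.08 to 4.86 CPM in IF, and pads had 1.83 to 5.84 CPM in wildtype and 3.19 to 3.71 CPM in IF. The gene is fibroblast-enriched, and IF adipocytes were above every fibroblast and pad library of IF and wildtype with title numbers 1 to 12. Of the other lines, within these title numbers, 1 PS pad library, at 7.99 CPM, was above IF adipocyte replicate 2. The log2 fold change against wildtype was 7.90 ± 0.83 (SE, n = 3 each, edgeR adjusted p = 0.000131), a value that rests on the 5 wildtype counts. The log2 excess over the mixture was 3.64, 2.82 and 2.99 in IF replicates 1, 2 and 3 on the scale of CPM + 1. In the offset fit it was 7.38 ± 0.74, which takes off little of the expected rise because the wildtype level is near 0.

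ENSRNOG00000026951 had 0.272, 0.326 and 0.576 CPM in wildtype adipocytes and 30.1, 1.58 and 28.4 CPM in IF replicates 1, 2 and 3. The groups did not overlap, but replicate 2 was far below the other IF libraries, and its excess over the mixture of 0.90 missed the 2-fold rule. No library of IF or wildtype MECs, fibroblasts or pads exceeded 1.03 CPM, and PS and IFPS adipocytes had at most 0.144 CPM. The log2 fold change was 5.71 ± 0.91 (SE, edgeR adjusted p = 0.000793). In the edgeR fit of only IF and wildtype adipocytes the adjusted p was 0.0161.

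ENSRNOG00000015357 had 32.5, 36.7 and 41.5 CPM in wildtype adipocytes and 5.36, 9.26 and 9.04 CPM in IF. All 3 IF libraries were low and close to each other. PS adipocytes had 16.7 to 24.1 CPM and IFPS adipocytes 23.8 to 31.4 CPM, so these lines also lay below wildtype and above IF. IF pads had 48.9 to 93.4 CPM and wildtype pads 30.9 to 37.9 CPM, the opposite order, although that difference missed the threshold (edgeR adjusted p = 0.459). The log2 fold change in adipocytes was -2.12 ± 0.23 (SE, edgeR adjusted p = 0.000136).

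ENSRNOG00000003840 had 20.7, 28.8 and 36.2 CPM in wildtype adipocytes and 10.6, 8.34 and 8.78 CPM in IF. The groups did not overlap, and IF replicate 2 was as low as the others. Fibroblasts had 179 to 229 CPM in wildtype and 212 to 287 CPM in IF. PS adipocytes had 13.6 to 26.7 CPM and IFPS adipocytes 19.1 to 20.4 CPM, above IF, with all IFPS libraries below the lowest wildtype library. IF pads had 28.3 to 38.4 CPM and wildtype pads 21.5 to 26.1 CPM, the opposite order, a difference that missed the threshold (edgeR adjusted p = 0.44). The log2 fold change was -1.53 ± 0.22 (SE, edgeR adjusted p = 0.00046), and the log2 excess over the mixture was -1.80 ± 0.21.

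**Figure D5:**
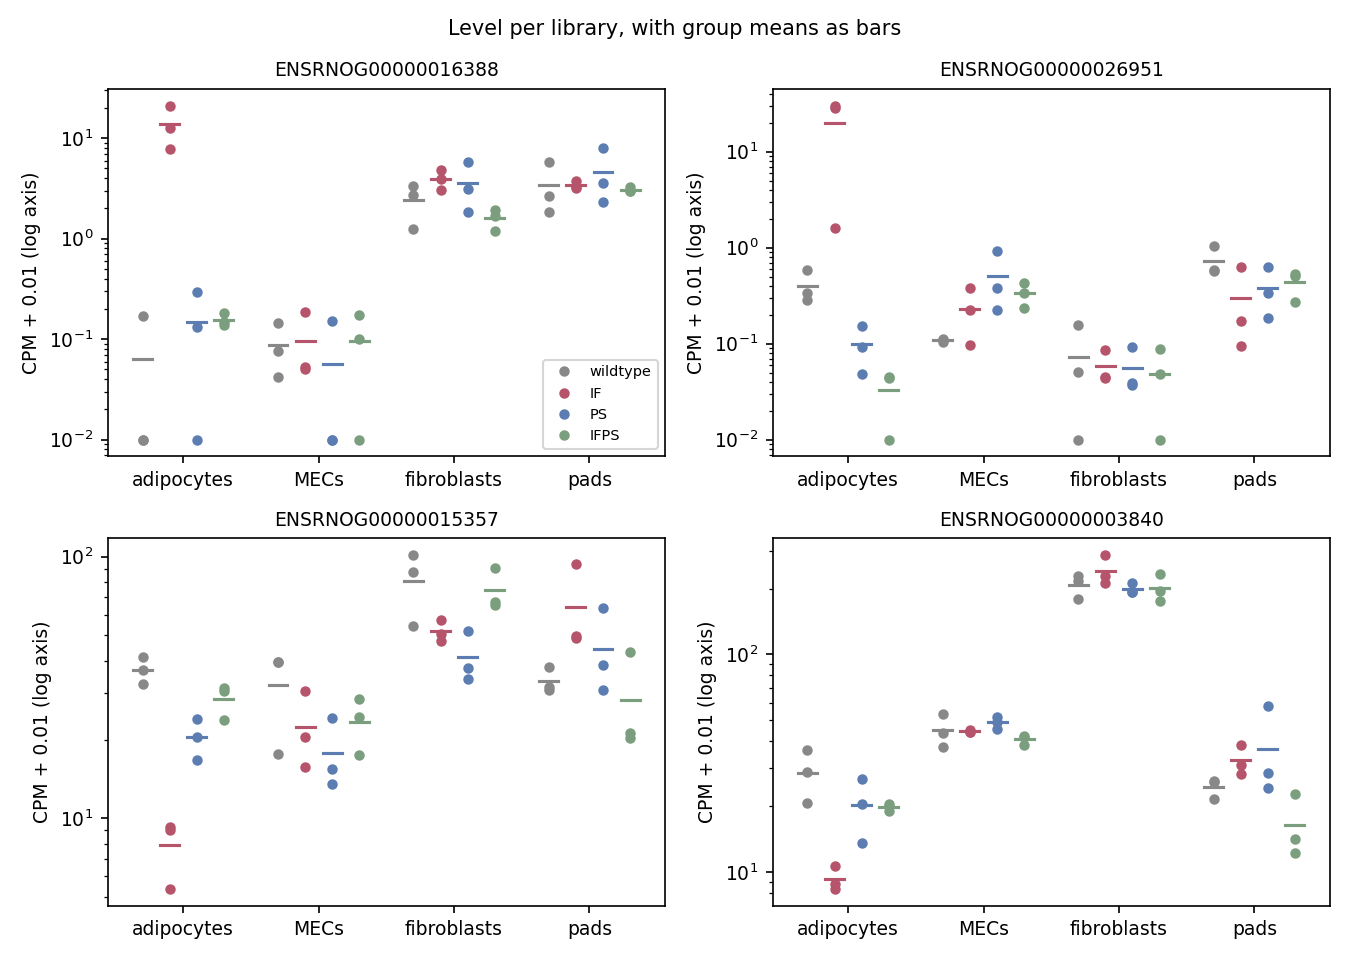
Level of the 4 identifiers in each library of adipocytes, MECs, fibroblasts and pads of the 4 lines with title numbers 1 to 12, as CPM + 0.01 on a log axis, with a bar at the mean of each group. The IF adipocytes stand above (upper panels) or below (lower panels) every library shown of wildtype adipocytes and of the other IF and wildtype tissues.

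Whether the IF line shifted the same genes in other normal tissue was tested in a fit of 24 libraries of IF and wildtype adipocytes, MECs, fibroblasts and pads. Of 14253 genes tested in adipocytes and in this fit, IF differed from wildtype in 23 genes in MECs (0.161%), 185 in fibroblasts (1.3%) and 20 in pads (0.14%). Of the 321 genes above the range in adipocytes, 1 was also higher in IF MECs, 4 in IF fibroblasts and 1 in IF pads, and 14 were lower in IF fibroblasts. Of the 1216 genes below the range, 0 were lower in MECs or pads and 6 in fibroblasts, and 4 were higher in IF fibroblasts. The shares of all genes given above count both directions together. The range includes the IF libraries of these tissues, so their levels also affect which genes lie outside it. The difference between tissues was tested directly. The IF effect in adipocytes differed from the mean IF effect in MECs and fibroblasts in 39% of 16534 genes, 3506 higher (21.2%) and 2938 lower (17.8%). It differed from the IF effect in pads in 39.5% of genes, 3687 higher (22.3%) and 2846 lower (17.2%). Of the 270 genes above the mixture, 250 had a higher IF effect in adipocytes than in pads and 234 a higher one than in the cultured cells. Of the 146 genes below it, 127 and 116 had a lower one. These tests use the IF adipocyte libraries that chose the genes. Adipocyte-enriched genes had a median log2 fold change of 0.10 between IF and wildtype pads, where it was -0.34 in isolated adipocytes, and 131 of 706 (18.6%, beside 19.8% of the 14253 genes) had a lower IF effect in adipocytes than in pads and 42 (5.95%, beside 22.2%) a higher one. The share with a lower effect was thus near that of all genes. MEC-enriched genes had a median of -0.09 in pads and pad-enriched genes one of -0.21. The higher levels of these classes in IF adipocytes therefore had no counterpart in the medians of IF pads.

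In the IF libraries the fitted share of other tissue was highest in replicate 1 and lowest in replicate 2. The median change from wildtype had the same order in size for the adipocyte-enriched, MEC-enriched and fibroblast-enriched classes. It also had that order for genes higher in both MECs and fibroblasts than in adipocytes, at 1.36, 0.38 and 1.23 in replicates 1, 2 and 3. It did not have that order for pad-enriched genes, at 1.0, 0.49 and 1.04 in replicates 1, 2 and 3, nor for the 11311 genes of none of the classes, at -0.10, -0.19 and -0.17. The part of that tissue in the genes beyond the mixture was not tested beyond the fits given here.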

How the data were processed

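The values the authors deposited are raw read counts for Ensembl gene identifiers, in 80 columns matched to the samples by title. The submitters' processing notes name Trim Galore, STAR 2.5.2b and the build Rnor_6.0, and the counting tool and its strand setting are not given in the sources used here, so genes that share reads with a copy, an overlapping or an antisense gene are uncertain. Of 32883 identifiers, 0 matched the 47357 genes of the reference table. The members and lists were chosen with earlier results of these data known. The gene classes, the mixture offset, the analyses of IF replicate 2 alone and its use to look up genes were added after the data were seen.

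Counts were tested with edgeR 4.0.16 in R 4.3.3 (quasi-likelihood test, TMM, filterByExpr, Benjamini-Hochberg adjustment over all genes tested, threshold 0.05). The adipocyte fit held all 12 adipocyte libraries and the tissue fit 24 libraries of IF and wildtype. Levels are CPM of the library total, and mixtures were fitted with scipy 1.17.1 and a pseudocount of 1 CPM. A pad share can absorb changes of IF adipocytes. Tests and mixtures were tested on simulated data. No IF or wildtype libraries were near-duplicates (chi-square per degree of freedom at least 23.5). The rule for named genes asked for symbols and, failing these, for the 2 highest and the 2 lowest identifiers outside the range with at least 10 CPM. Alternatives were RLE size factors, no filter on low counts, DESeq2 1.42.0, fits of fewer libraries, thinning, a replicate block, other mixture components and leaving out each library.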

Additional observations from a re-analysis of the deposited data

Results flagged for a closer look

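The IF effect differed between tissues by a test of the difference itself, edgeR's interaction contrast with Benjamini-Hochberg adjustment. Against the mean effect in MECs and fibroblasts, 3506 genes had a higher and 2938 a lower IF effect in adipocytes. Against the effect in pads these numbers were 3687 and 2846. All 4 identifiers given above were among them. They were chosen because their IF adipocyte levels lay outside these same libraries, so this outcome was close to fixed by the choice. For ENSRNOG00000016388 the log2 difference in effect was 7.46 ± 1.07 (SE) against the cultured cells and 7.78 ± 0.88 against pads. For ENSRNOG00000026951 it was 5.29 ± 1.45 and 6.80 ± 1.14. For ENSRNOG00000015357 it was -1.56 ± 0.42 and -3.21 ± 0.49. For ENSRNOG00000003840 it was -1.67 ± 0.20 and -2.09 ± 0.23. The largest of these adjusted p-values was 0.00746.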

How the results depend on the processing

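Of 128 recomputed counts, 111 stayed within 1.5 times the reported value, and all 172 alternative values for the 4 identifiers kept their direction and call. The 4 were chosen for extreme changes in these libraries, which the alternatives use again, so their stability was largely set by the choice. The genes between IF and wildtype adipocytes fell to 1191 higher and 71 lower when at least 2-fold was required, to 1545 and 1262 with IF replicate 2 alone, and to 1152 and 1122 with that replicate and the mixture offset. A fit of only IF and wildtype adipocytes gave 2727 higher and 1597 lower genes. Outside the range, TMM-scaled CPM gave 683 above and 640 below, and a further 1.5-fold gave 87 and 121. Beyond the mixture, no pad component gave 408 above, and a log2 excess of 2 gave 20 above and 1 below. The causes were not tested.

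Leaving out 1 library at a time gave 3043 to 4641 higher and 2256 to 4153 lower genes between IF and wildtype, 279 to 645 above and 1058 to 1663 below the range, and 263 to 672 above and 111 to 668 below the mixture. The highest values of all 6 came without IF replicate 2.

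Title numbers are not shared by IF and wildtype, so pairing concerns the tissues only. Of 18 same-numbered combinations of adipocytes with another tissue, 4 had deviations correlated over 0.1, and 13 correlated best with their own number. With the number as a replicate block the IF effect in adipocytes was higher in 3501 and lower in 3097 genes than in cultured cells, and 3737 and 3050 than in pads. The fixed gene lists gave no value under any alternative, since no identifier had a symbol. Depth limits the genes near 0 in wildtype: 29 of the 270 genes above the mixture had a wildtype mean under 1 CPM, where fold changes rest on few counts.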

Other observations

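The tumors of the IF line were not part of the comparison. On the scale of mean CPM + 1, IF tumors were at least 2-fold below IF pads for 102 of the 270 genes above the mixture in IF adipocytes (37.8%, beside 12.3% of all genes tested) and at least 2-fold above them for 33 (12.2%, beside 7.3%). For the 146 genes below the mixture these shares were 20.5% and 4.79%. In PS and IFPS tissue, 127 of the 270 genes (47%, beside 41.1% of all genes tested) were highest in pads and 67 in MECs (24.8%, beside 30.4%). A further 45 were highest in adipocytes (16.7%, beside 16.3%) and 31 in fibroblasts (11.5%, beside 12.2%), both near the shares of all genes. These values are descriptions and were not tested.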
